A study of Arabidopsis thaliana with 7 samples.

Results

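The genes described here encode chromatin remodellers of Arabidopsis thaliana outside the ISWI class, namely the ATPases and other subunits of the SWI/SNF, SWR1, INO80 and CHD families and further proteins of the Snf2 family. They were chosen by name, from 32 listed names looked up among the symbols and synonyms of the NCBI RefSeq gene table. The choice was made with earlier results of these data known. The table held 31 of the names, which were 18 Snf2-type ATPases and 13 other subunits among 27444 protein-coding genes on the 5 nuclear chromosomes. SWC4 matched no symbol or synonym and was not scored. The name CHC1 belongs to a SWI/SNF subunit (AT5G14170) and is also a synonym of a clathrin gene, and the SWI/SNF gene was taken.

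The readout was chromatin immunoprecipitation followed by sequencing (ChIP-seq) in 12-day seedlings, with 2 samples of ZF-DDR5, 2 of ZF-DDR4, 2 of Col-0 and 1 further Col-0. ZF-DDR5 plants are labelled with a genotype of that name, a zinc finger joined to DDR5. ZF-DDR4 plants express DDR4 joined to a FLAG tag and a zinc finger. Col-0 plants are the untransformed wild type. No source used here names the promoter of the transgenes, or says what g3 means, a mark in the ZF-DDR5 titles and that of the further Col-0 sample. An anti-FLAG antibody is in the protocol and in the labels of the ZF-DDR4 and Col-0 samples, and the labels of the g3 samples have no antibody entry. The extract protocol speaks of a pair of independent homozygous lines for the DDR4 fusion and does not describe the ZF-DDR5 lines. All values that follow were taken from 1 list of peaks, that of ZF-DDR5 replicate 1, which holds 9999 peaks of 484 bp in the median. That list has positions only, with no score, height or count. The depth is unknown, the values have no replicate error, and no list of Col-0 or of another replicate was compared. A peak in this list therefore marks a called interval in 1 ZF-DDR5 sample, and whether Col-0 shares it was not analysed here. Peak positions give no expression values, so the tissue label could not be checked against marker genes.

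Chromatin remodellers use the energy of ATP to slide, evict or exchange nucleosomes. SWI/SNF complexes open chromatin at regulated genes, SWR1 exchanges histone H2A for the variant H2A.Z, INO80 acts on nucleosome spacing and H2A.Z, and CHD proteins space nucleosomes or act with histone methylation. In plants these families are known for their part in flowering, organ formation, hormone response and the change from embryo to seedling. DDR5, the protein fused to the zinc finger, is a DDT-domain protein, a class known to pair with ISWI, a further remodeller family that slides nucleosomes.

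A gene was counted as having a peak when a peak was centred inside it or up to 1000 bp beyond its edges. Of the 31 remodeller genes, 20 had such a peak, or 64.5% (Wilson 95% interval 46.9% to 78.9%). Over all protein-coding genes the share was 36.5%. Remodeller genes are long, with a median of 4950 bp against 2078 bp for all protein-coding genes, and 15 of the 31 fell in the longest of 20 bins of genes ordered by length. Genes of like length, taken as the sum of the shares in each gene's own bin, would give 16.8 genes with a peak (54.1%). The longest bin runs from 5276 to 27265 bp. With the 200 genes nearest in length to each remodeller gene in place of bins, the number was 17.4. No test was run on this difference, since genes are not replicates and there is 1 list. The Wilson intervals here and below treat genes as independent draws and do not serve as a test.

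**Figure D1:**
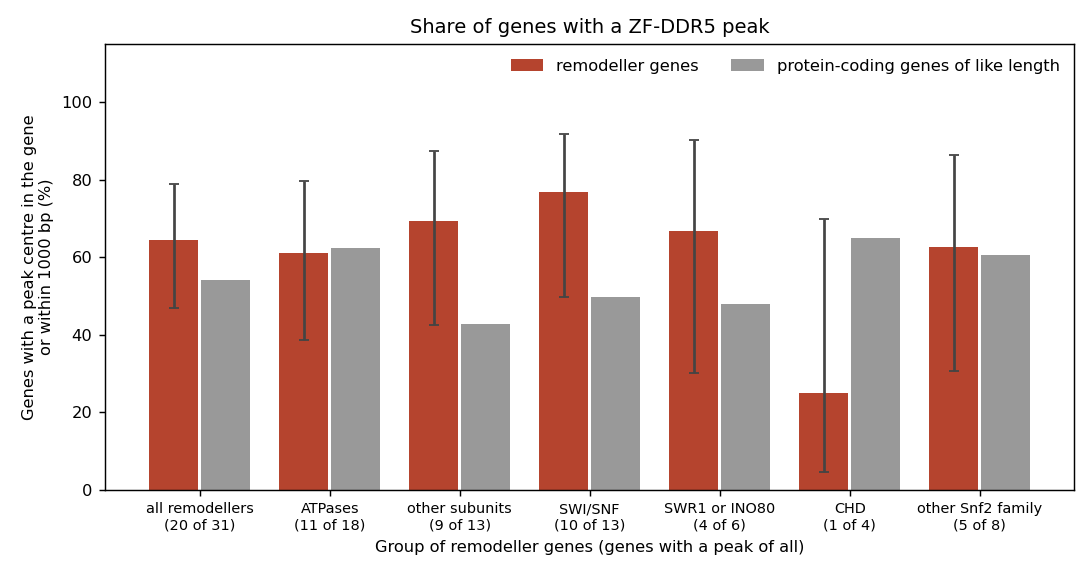
Share of genes (%, vertical axis) with a peak centre in the gene or within 1000 bp, for the remodeller genes as a whole and by group (red, with Wilson 95% intervals that cover counting error only) and for protein-coding genes of like length (grey). The shares are 64.5% against 54.1% for all 31 genes, 61.1% against 62.3% for the ATPases and 76.9% against 49.6% for SWI/SNF genes. SWI3A and SWI3B count through a centre in a neighbouring gene. In the body alone, 8 of 13 SWI/SNF genes had a centre, against 5.35 at like length. No difference was tested. CHD genes have the lowest share, 1 of 4.

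The peaks lay mostly inside the genes. A centre fell in the gene body of 17 of the 31 remodeller genes (54.8%), against 26.9% of all protein-coding genes and 14.3 genes at like length. The 31 genes had 31 peaks in all, of which 27 were centred in a gene body and 4 in a neighbouring gene. The 27 are set against 23.6 centres that the density in each length bin would give over the same length. Peaks covered 9.55% of the 188948 bp of remodeller gene bodies, against 7.49% in genes of like length and 7.72% in all protein-coding genes. Of the 31 genes, 11 had no peak centre, 11 had 1, 7 had 2 and 2 had 3. For at least 3 centres, the 2 genes stand against 1.56 at like length by bins or 2.20 by the 200 nearest genes. At least 2 centres were found at 9 genes (29.0%), against 7.89% of all protein-coding genes and 5.96 genes at like length by bins or 7.01 by the 200 nearest genes. For the gene body (Wilson 37.8% to 70.8%) and for at least 2 centres (16.1% to 46.6%) the remodellers were above genes of like length. These differences were not tested.

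**Figure D2:**
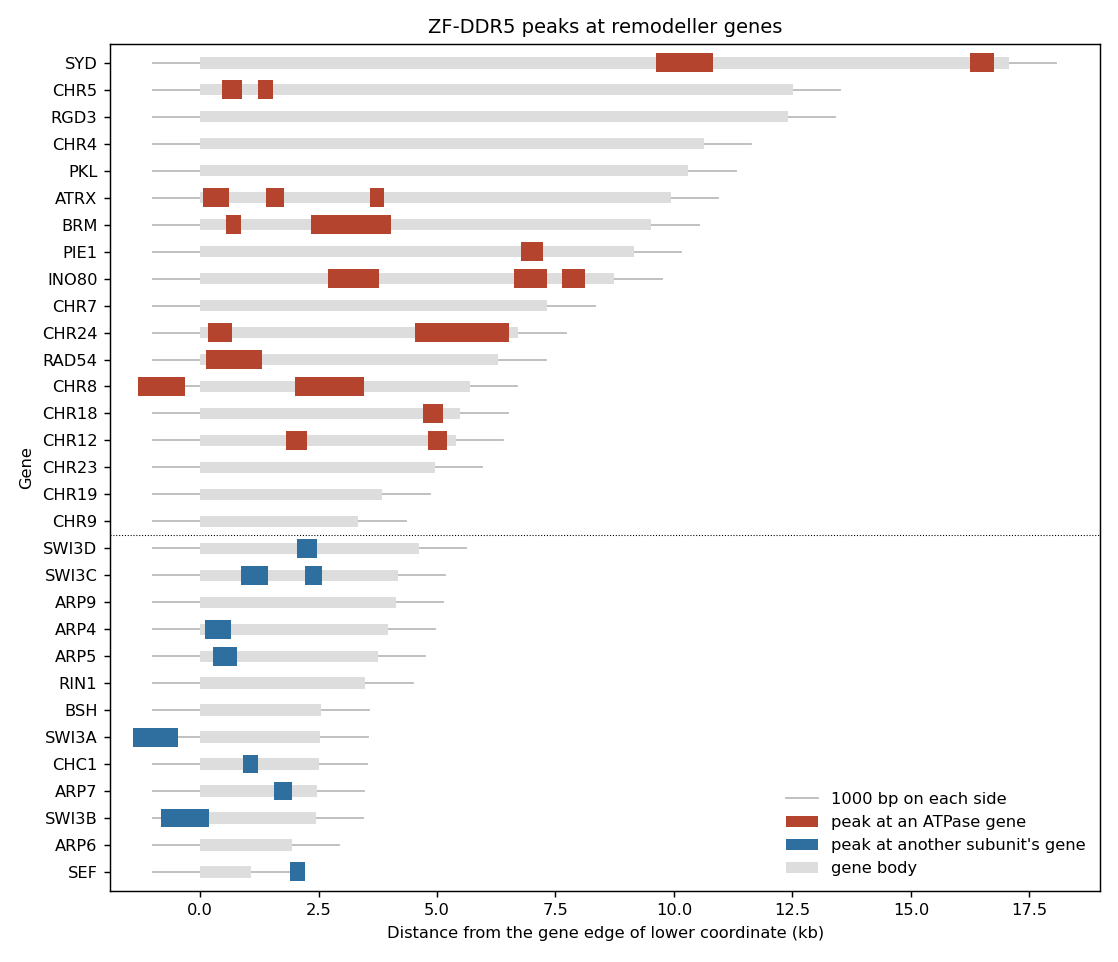
Each remodeller gene drawn to scale from its edge of lower coordinate (horizontal axis, kb), with the gene body in light grey, 1000 bp on each side as a line, and ZF-DDR5 peaks as boxes of their true width, red at ATPase genes and blue at genes of other subunits. SYD, BRM, INO80, CHR8, CHR24 and RAD54 carry wide peaks, and CHR4, PKL, CHR7 and RGD3 are long genes without any.

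Several peaks at a gene were found mostly at ATPases. Of the 18 ATPase genes, 11 had a peak (61.1%, Wilson 38.6% to 79.7%), against 11.2 genes at like length. All 11 had a centre in the gene body, against 9.955 genes at like length by bins or 10.78 by the 200 nearest genes. At least 2 centres were found at 8 of the 18, against 4.66 at like length by bins or 5.74 by the 200 nearest genes. With centres in the body alone 7 did, against 3.43 by bins or 4.49 by the 200 nearest genes, since the second CHR8 centre lies in the neighbouring gene. Of the 13 genes of other subunits, 9 had a peak (69.2%, Wilson 42.4% to 87.3%), against 5.55 at like length. In 3 of those 9, however, every centre lay in a neighbouring gene, so 6 of the 13 had a centre in the body, against 4.35 at like length. A single subunit gene, SWI3C, had 2 centres. ATPase genes are the longer class, with a median of 8036.5 bp against 2559 bp for the other subunits. ATPase genes with a peak had a median length of 8744 bp and those without one 7329 bp. No difference between ATPases and other subunits was tested.

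The SWI/SNF ATPases are the motors of the complexes. BRM (AT2G46020, chromosome 2) is the Brahma homologue, which acts in leaf and flower development and in hormone response. Its gene of 9523 bp carried a peak of 1681 bp at chromosome 2, 18924878 to 18926558 (TAIR10), which ranked 71 by width among the 9999 peaks. The centre lay 3185 bp from the nearest edge of the gene. A second peak in BRM, at 18923083 to 18923402, was narrow, at 320 bp. Among the 200 genes with a peak that were nearest to BRM in length, 1% had a peak as wide as its widest. SYD (AT2G28290), the SPLAYED ATPase that keeps stem cells of the shoot meristem active, is the longest of the genes at 17067 bp. Its widest peak measured 1197 bp, at chromosome 2, 12065832 to 12067028, deep in the gene and 6849 bp from the nearest edge. The other SYD peak (12072453 to 12072962, 510 bp) lay 571 bp from the edge of higher coordinate. BRM and SYD thus each carried a wide peak well inside the gene and a narrower peak less than 1000 bp from an edge.

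CHR12 (AT3G06010) and CHR23 (AT5G19310) are the closely related smaller SWI/SNF ATPases, known for effects on growth and embryo patterning. CHR12 had 2 peaks of ordinary width, 436 bp at chromosome 3, 1803955 to 1804390, and 409 bp at 1806949 to 1807357. CHR23 had none, and the nearest centre lay 2441 bp beyond its edge. Of genes of like length, 55.5% had a peak for CHR12 and 54.0% for CHR23. The difference within this pair is that of 2 peaks against none and has no error.

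Among the SWI/SNF subunits, the SWI3 proteins form the scaffold of the complex, and all 4 of their genes were counted as having a peak. Only SWI3C and SWI3D had it in the gene body. Of the 200 genes nearest in length, 45.5% had a peak for SWI3A, 33.5% for SWI3B, 46.5% for SWI3C and 54.0% for SWI3D. For a centre in the gene body, that share was 44.5% for SWI3D and lower for the other SWI3 genes. These differences were not tested. SWI3C (AT1G21700), the partner of BRM, had peaks of 563 bp (chromosome 1, 7620870 to 7621432) and 354 bp (7622213 to 7622566), with 780 bp between them. Together they covered 22.0% of the gene. SWI3D (AT4G34430) had a peak of 424 bp near the middle of the gene, at chromosome 4, 16462943 to 16463366, 48.7% of the way along it. The peak counted for SWI3B (AT2G33610) measured 1007 bp (chromosome 2, 14228148 to 14229154). Its centre lay 321 bp outside SWI3B, in the body of the neighbouring gene CRL2 (AT2G33600), and it reached 183 bp into SWI3B. The peak counted for SWI3A (AT2G47620), of 964 bp at 19530519 to 19531482, was centred 938 bp away in the neighbouring gene AT2G47610 and did not overlap SWI3A. The SWI3A and SWI3B calls are therefore calls of a neighbour's peak.

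The remaining genes listed as SWI/SNF subunits had single peaks of ordinary width or none. The complex of each gene was assigned by the list used here and was not checked in these data. CHC1 (AT5G14170), a BAF60-type subunit, had a peak of 335 bp at chromosome 5, 4569377 to 4569711. The actin-related protein ARP4 (AT1G18450) is shared by several remodelling complexes, and its gene had a peak of 530 bp centred 379 bp inside an edge, at chromosome 1, 6348162 to 6348691. ARP7 (AT3G60830), an actin-related protein needed for embryo development, had a peak of 381 bp at chromosome 3, 22475539 to 22475919. BSH (AT3G17590), the SNF5 homologue, had none, and the nearest centre was 10425 bp away. ARP9 (AT5G43500), an actin-related protein counted here with SWI/SNF, had its nearest centre 5540 bp away. Taken over ATPases and subunits, 10 of 13 SWI/SNF genes had a peak (76.9%, Wilson 49.7% to 91.8%), against 6.45 at like length, and 8 of the 13 had it in the body, against 5.35. The like-length share for the first of these counts was 49.6% by bins and 50.9% with the 200 genes nearest in length. The difference was not tested.

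The SWR1 and INO80 genes were led by INO80 itself. INO80 (AT3G57300), the ATPase known for homologous recombination and H2A.Z in plants, had 3 peaks in its 8744 bp. They measured 1078 bp (chromosome 3, 21201844 to 21202921), 698 bp (21205771 to 21206468) and 488 bp (21206793 to 21207280). Peaks covered 25.9% of the gene, and the 698 bp and 488 bp peaks were 324 bp apart. Of all protein-coding genes 1.38% had at least 3 centres, and of the 200 genes nearest to INO80 in length 12.0% did. PIE1 (AT3G12810), the ATPase of SWR1 and a regulator of the floral repressor FLC, had a single peak of 475 bp at 4071805 to 4072279, 76.5% of the way along its 9153 bp. ARP5 (AT3G12380), the actin-related partner of INO80, had a peak of 517 bp centred 524 bp inside an edge (3938449 to 3938965).

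The genes of the remaining subunits of this group had no centre in the body. ARP6 (AT3G33520), the subunit of SWR1 needed for H2A.Z deposition and for the response to warmth, lay in a gene-poor window, and its nearest peak centre was 38059 bp away. The peak counted for SEF (AT5G37055), the SWC6 subunit, was centred 983 bp outside it, in the body of its neighbour CHX24. That peak of 334 bp did not overlap SEF, a gene of 1072 bp. RIN1 (AT5G22330), a RuvB-like ATPase found in SWR1 and INO80 complexes, had its nearest centre 8779 bp away. In all, 4 of the 6 genes had a peak, against 2.88 at like length, and 3 of them in the body, against 2.36.

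Of the 4 CHD genes, CHR5 alone had a peak. PKL (AT2G25170), the PICKLE protein that represses embryonic traits in seedlings, had no centre in its 10300 bp, and the nearest lay 2897 bp beyond it. Its relatives CHR4 (AT5G44800) and CHR7 (AT4G31900), named PICKLE RELATED 1 and 2 in the table, had none either, with the nearest centres 3834 bp and 2704 bp away. Of the 200 genes nearest in length, 73.5% had a peak for PKL, 72.0% for CHR4 and 66.0% for CHR7. CHR5 (AT2G13370), the CHD1-type protein of the family, had 2. These peaks of 417 bp (chromosome 2, 5544518 to 5544934) and 311 bp (5545284 to 5545594) lay 349 bp apart and 672 bp and 1385 bp from the edge of lower coordinate. The rest of this gene of 12507 bp had none, and CHR5 lay in a gene-poor window. The count of 1 in 4 CHD genes (Wilson 4.56% to 69.9%) stands against 2.60 at like length by bins (65.0%) and 2.87 by the 200 nearest genes (71.6%). With 4 genes, this difference was not tested.

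**Figure D3:**
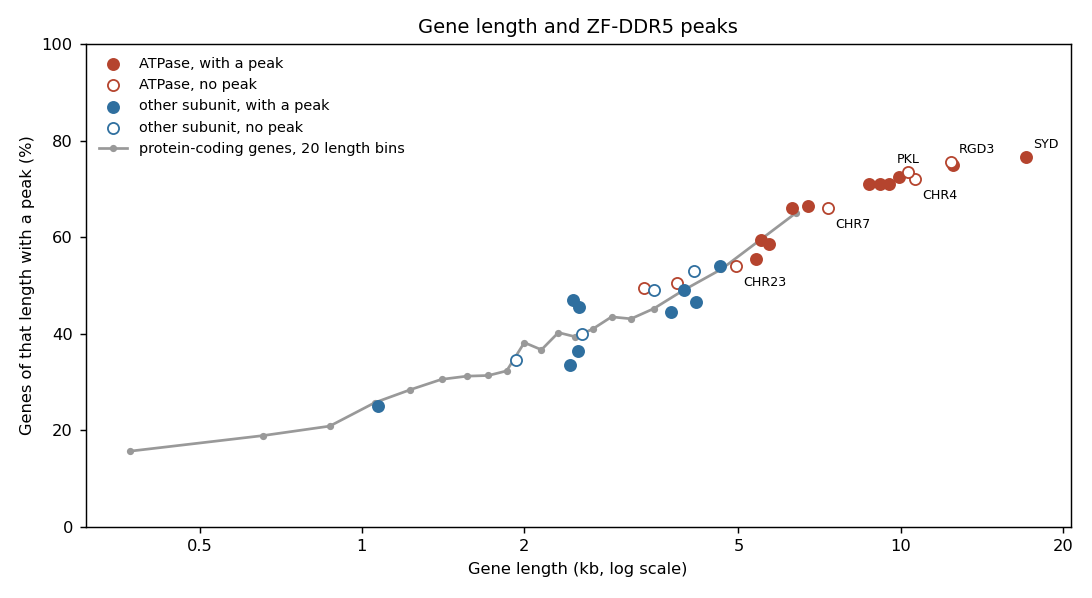
Each remodeller gene by length (horizontal axis, kb, log scale) and by the share of its 200 nearest genes in length that had a peak (vertical axis, %), filled where the gene itself had a peak and open where it had none. The grey line gives all protein-coding genes in 20 length bins, 15.7% in the shortest and 65.0% in the longest, and RGD3, CHR4, PKL and CHR7 are open points at 66.0% or above.

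Of the further Snf2 family ATPases, 5 of 8 had a peak, against 4.84 at like length. CHR24 (AT5G63950), listed with the synonym ERCC6, the name of the human Cockayne syndrome repair factor, had the second widest peak of the list. It measured 1976 bp (chromosome 5, 25596491 to 25598466) and was centred 1192 bp inside the edge of higher coordinate. With a second peak of 525 bp (25592114 to 25592638), 37.2% of the gene was covered, the largest share among the 31. None of the 200 called genes nearest to CHR24 in length had a peak as wide. CHR8 (AT2G18760), which the table also lists as ERCC6, had a peak of 1442 bp at chromosome 2, 8130714 to 8132155, near the middle of the gene. A further peak of 1003 bp at 8127386 to 8128388 was counted for CHR8 but was centred 819 bp outside it in the neighbour AT2G18750. Both genes with the ERCC6 synonym thus had a peak of more than 1000 bp in the body, a limit set after the widths were seen. BRM, SYD, INO80 and RAD54 had one as well. In the body, 6 of the 31 genes thus had a peak of at least 1000 bp. Genes of like length would give 2.04 by bins or 2.11 by the 200 nearest genes. Of all protein-coding genes, 4.47% had a peak of at least 1000 bp in the gene or within 1000 bp.

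RAD54 (AT3G19210), which acts in homologous recombination, had a peak of 1169 bp at chromosome 3, 6652828 to 6653996, 717 bp inside an edge. ATRX (AT1G08600), known for the deposition of histone H3.3, had 3 peaks, and all were of ordinary width or narrow. They measured 534 bp (chromosome 1, 2723746 to 2724279), 387 bp (2725062 to 2725448) and 291 bp (2727263 to 2727553), with centres 3.38%, 15.9% and 37.6% of the way along the gene. CHR18 (AT1G48310) had a peak of 421 bp at 17853135 to 17853555, 570 bp inside an edge. CHR9 (AT1G03750, symbol SWI2) had no peak, with the nearest centre 2625 bp away, and for CHR19 (AT2G02090, symbol ETL1), of the Fun30 type, it was 23538 bp away. RGD3 (AT3G54280), the BTAF1 homologue that acts on the TATA-binding protein, was the longest gene without a peak, at 12406 bp. Its nearest centre was 10030 bp away, and 75.5% of the genes nearest to it in length had a peak.

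Peaks were wide at a few ATPase genes. At the remodellers the 31 peaks measured 510 bp in the median, with quartiles of 398 and 983.5 bp, against 487 bp, with quartiles of 369 and 707 bp, for the 9068 peaks in protein-coding genes or within 1000 bp of one. The medians were close and the upper quartiles further apart. At ATPase genes 7 of 21 peaks (33.3%) were at least 1000 bp wide, and at the other subunits 1 of 10. The 7 include the peak counted for CHR8 in its neighbour. Among all 9068 peaks 919 were (10.1%). Counted by gene, 7 of the 31 remodeller genes had a peak of at least 1000 bp, against 4.47% of all protein-coding genes and 2.44 genes at like length. The share was 22.6%, against 7.88% at like length by bins, and the 200 nearest genes would give 2.51 genes. These 7 were BRM, SYD, INO80, CHR8, CHR24, RAD54 and SWI3B, and for SWI3B the peak was centred in its neighbour. The limit of 1000 bp was chosen after the widths were seen, so this count is a description and no interval is given for it. BRM and CHR24 stand out by their wide peaks, so the shares of like-length genes with a peak as wide are description too. Among the 200 called genes nearest in length, that share was 2% for CHR8 and 8% for SYD. It was 10% for INO80, 10% for RAD54 and 16.5% for SWI3B. Set against the 200 nearest genes, 8 genes had a peak of at least 600 bp against 8.45 at like length, with 800 bp 8 against 4.47, and with 1200 bp 3 against 1.33. The count was thus above that of like-length genes at limits of 800 bp and more and not at 600 bp.

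**Figure D4:**
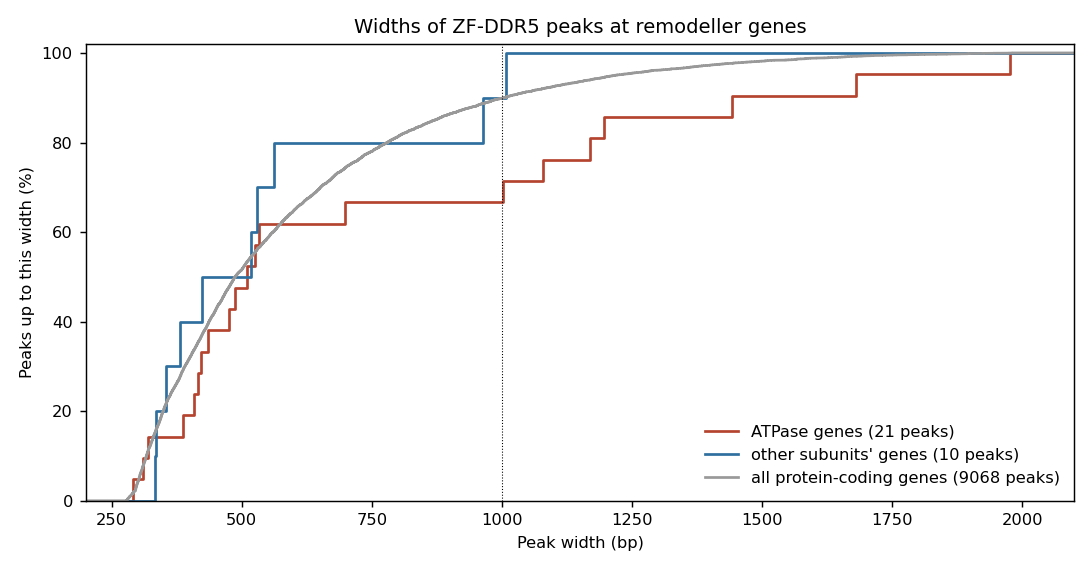
Cumulative share of peaks (%, vertical axis) up to each width (horizontal axis, bp) at ATPase genes (red), at genes of other subunits (blue) and at all protein-coding genes (grey), with 1000 bp as a dotted line. From 600 bp upwards the red curve runs below the grey one, with 7 of 21 ATPase peaks at least 1000 bp wide.

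Within the genes, no centre lay under 250 bp from an edge. The 27 centres in remodeller gene bodies were between 336 and 6849 bp from the nearest edge, with a median of 1150 bp. Over all protein-coding genes, the 8626 pairs of a gene and a centre in its body had a median of 623 bp, and 12.6% were under 250 bp from an edge. In genes at least as long as the median remodeller gene, 4950 bp, the median was 1534 bp, and 5.60% of 1392 pairs were under 250 bp. The remodeller genes include shorter ones, so neither set is matched to them in length. The limit of 250 bp was not among the planned measures, and differences from these shares were not tested. A band from 250 to 1000 bp held 12 of the 27 centres (44.4%), between the 59.0% of all protein-coding genes and the 28.2% of those long genes. Which edge is the start of transcription, and whether a centre lay in an exon or an intron, was not analysed here.

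The limit of 1000 bp around genes mattered for few members. SEF and SWI3A lay just inside it, with centres 983 and 938 bp away. No gene lay just outside it, and the nearest, CHR23, had its closest centre 2441 bp away. The chromosomes held between 2 and 9 of the 31 genes, with 4 of 5 called on chromosome 1, 6 of 8 on chromosome 2, 6 of 9 on chromosome 3, 1 of 2 on chromosome 4 and 3 of 7 on chromosome 5. Over all protein-coding genes the share was between 34.2% on chromosome 2 and 37.4% on chromosome 1. Those shares are not matched in length to the remodeller genes, which are longer.

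Other remodeller genes outside the 31 were counted the same way, from lists of 38 genes of which the table names 25. Without the ISWI genes, 10 of 21 had a peak (47.6%), against 10.3 at like length. With the planned loci that the table does not name, it was 15 of 32, against 14.9. The genes of H2A.Z, the histone variant that SWR1 deposits, had no peak at HTA8, HTA9 or HTA11, against 0.909 of 3 at like length. Of 5 further SWR1 and INO80 genes, 4 had a peak, against 2.27 at like length, but with the unnamed loci it was 4 of 9, against 3.57. MBD9 (AT3G01460), a methyl-CpG-binding domain protein linked to SWR1, had 5 centres, more than any of the 31. The SWC2 gene had 1 peak of 441 bp. Of 11 further Snf2 genes none had at least 2 centres, against 2.37 at like length. A peak was found at 6 of them, each a single one, against 6.36 at like length. The remodeller of DNA methylation DDM1 (listed as CHR1) had the widest of these, 695 bp, and DRD1, which acts in RNA-directed DNA methylation, had one of 584 bp. LFR and AN3, both SWI/SNF partners, had none, while 4 of the 8 loci of that list had a peak when the unnamed ones were included, against 3.40 at like length. None of these 21 genes had a peak of 1000 bp or more, against 1.48 at like length. Of the 4 ISWI complex genes named in the table, 3 had a peak against 2.60 at like length, and the widest, in HB-1 (RLT1), measured 864 bp.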

How the data were processed

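Of 7 ChIP-seq samples, the processed data analysed here are 1 deposited list of peaks under ZF-DDR5 replicate 1. It gives chromosome, start and end of each peak in bp, counted from 0, and no other value. Positions are printed counted from 1. Per the submitters' processing notes, the build was TAIR10 and the tools included deepTools 3.5.1, Picard 2.25.6, SAMtools, Bowtie2 2.4.2 and fastp 0.20.1. The sources used here do not give the caller, its threshold and control, or any pooling of replicates. Those choices, and any limit on the number of rows, set which genes have a peak.

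Gene names and edges came from the NCBI RefSeq table of assembly TAIR10.1, a name other than that of the peaks' build, and only distances to gene edges are printed. Peak centres in protein-coding genes numbered 8493, and at most 8314 when all peaks were shifted by 200 to 5000 bp. The table gives no strand or exons, and no genome sequence was used. Python 3.11.15, pandas 2.3.3, numpy 2.4.6 and scipy 1.17.1 were used. The shares at like length come from 20 bins of genes by length, or the 200 nearest genes. A window of 500 kb was called gene-poor when it held under 50% of the median count of protein-coding genes per window. Every listed gene is accounted for, and a neighbour is named where its body holds the centre. The counting was checked on simulated peaks. Genes and lists were chosen with earlier results of these data known. Wilson intervals cover counting error only. No test was run, since there is 1 list.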

Additional observations from a re-analysis of the deposited data

How the results depend on the processing

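Of 39 alternative values, 33 stayed within 1.5 times the reported count, a wide limit that 6 other subunits in place of 9 still meet. The 50% overlap setting asks nearly the same as a centre inside, so its equal values add no check. Scoring the gene body, 500 bp or 2000 bp on each side, any overlap, 50% overlap or each peak at 1 gene left 17 to 20 genes with a peak, 11 of them ATPases and 6 to 9 other subunits. The distance to genes of like length (200 nearest) did change, with 17 genes against 15.2 in the body, 18 against 16.1 at 500 bp, 20 against 18.2 with any overlap and 20 against 19.8 at 2000 bp, where 46.8% of all protein-coding genes had a peak. The number at like length was 15.9 to 17.4 with other bins, the 200 nearest genes or a comparison outside gene-poor windows, against 16.8. Keeping the wider 50% of the peaks left 12 genes with a peak, 7 ATPases and 5 other subunits, with 17 peaks and 10 genes with a centre in the body, which follows from there being fewer peaks. Genes of like length (200 nearest) would then give 11.0. A width limit of 1200 bp, chosen after seeing the data, left 3 genes in place of 7. Without the 2 genes in gene-poor windows, CHR5 and ARP6, 19 of 29 had a peak, against 15.7 at like length. No paired analysis was possible because the result comes from no test and 1 list was analysed. With no score in the list, no stricter threshold could be set. The effect of depth on the number of peaks was not assessed, since depth is unknown.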

Other observations

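The gene table gives a CHR number, the series of names used for Snf2 family genes of Arabidopsis, to 29 protein-coding genes, and 16 of them had a peak centre in the gene or within 1000 bp, against 17.8 by the 200 genes nearest in length to each. The 1 gene outside the lists counted above, CHR34 (AT2G21450), had a peak of 279 bp in its body, the narrowest width in the list, and 41.0% of the genes nearest to it in length had a peak. CHR38 (CLSY1), which acts in RNA-directed DNA methylation, had a peak of 433 bp. CHR42 had a peak of 287 bp, and chr31 and CHR40 had none.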
